A study of Mus musculus with 12 samples.

Results

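The G1 machinery was followed through 10 genes in primary mouse CD4+ T cells: the CDK inhibitors Cdkn1a, Cdkn1b, Cdkn2c and Cdkn2d, the D cyclins Ccnd2 and Ccnd3, the E cyclins Ccne1 and Ccne2, and the kinases Cdk4 and Cdk6. They were chosen by gene symbol, and all 10 were found among the 17203 genes listed. The cells, T lymphocytes of the helper type, were from C57BL/6 mice, and RNA sequencing gave 12 libraries in 4 groups of 3. CD3_CD28_ICOS cells were held for 72 h with soluble antibodies against CD3, CD28 and ICOS. CD3_CD28 cells had plate-bound anti-CD3 and soluble anti-CD28 for 72 h, and CD3 cells had plate-bound anti-CD3 alone for 72 h. Unstimulated cells, called Naive_CD4 in their sample descriptions, were fresh and had no activation. Stimulation and 72 h of culture therefore cannot be told apart. Between CD3_CD28_ICOS and CD3_CD28 both anti-ICOS and the anti-CD3 format (soluble or plate-bound) change, and these cannot be told apart either. The same holds between CD3_CD28_ICOS and CD3, where anti-CD28, anti-ICOS and the anti-CD3 format all change. The study's design text mentions transduced cells, while the sample labels give none. Nothing in the labels tells if a group's 3 libraries had separate mice or cultures behind them. The p-values therefore measure only the spread between libraries, which may be technical.

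Anti-CD3 engages the T cell receptor complex, and CD28 and ICOS are related costimulatory receptors. A resting T cell lies outside the cell cycle, and entry through G1 depends on cyclin-dependent kinases (CDKs), which are active only when bound to a cyclin. D cyclins pair with CDK4 and CDK6 and begin the phosphorylation of the retinoblastoma protein RB, which releases E2F transcription factors. E cyclins, themselves E2F targets, then pair with CDK2 and carry the cell into S phase. INK4 inhibitors, among them the products of Cdkn2c and Cdkn2d, bind CDK4 and CDK6 directly. CIP/KIP inhibitors, among them the products of Cdkn1a and Cdkn1b, bind cyclin-CDK complexes and restrain CDK2. Several of these proteins are also controlled by degradation and phosphorylation, which RNA levels do not show.

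Levels are CPM, counts per 1000000 reads assigned to genes, as the authors deposited them. Differences are log2 fold changes of CPM + 1, where the added 1 shrinks the change of low genes, from limma fitted to the 9826 genes that reached 10 CPM in 3 or more libraries. A gene is said to have risen, fallen or passed where its Benjamini-Hochberg adjusted p was under 0.05. All 10 genes entered the test. Cdkn1a, Cdkn2c, Ccne1 and Ccne2 were under 10 CPM in all 3 unstimulated libraries and entered only through the stimulated groups, so their difference from unstimulated cells was partly built into their entry. Depth, estimated from the steps between low CPM values, was 11.4 to 37.5 per library in units of 1000000 reads, and 1 read was worth 0.0267 to 0.0878 CPM.

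The 6 T cell markers summed to 3329 to 3749 CPM in CD3_CD28_ICOS, 2214 to 2621 CPM in CD3_CD28, 2458 to 2847 CPM in CD3 and 4018 to 4375 CPM in unstimulated libraries. Against unstimulated cells 3, 5 and 5 of the 6 fell in CD3_CD28_ICOS, CD3_CD28 and CD3, and in CD3_CD28 against CD3 4 fell and 1 rose. In CD3_CD28_ICOS 5 of the 6 rose against CD3_CD28 and 4 rose against CD3, and 0 fell in either comparison. The 5 CD8 and NK markers summed to 48.1 to 89.6 CPM in CD3_CD28_ICOS, 23.0 to 29.7 CPM in CD3_CD28, 27.9 to 39.2 CPM in CD3 and 42.1 to 61.2 CPM in unstimulated libraries. The 5 B cell markers summed to 157 to 451 CPM in CD3_CD28_ICOS, 6.40 to 8.53 CPM in CD3_CD28, 214 to 456 CPM in CD3 and 93.8 to 169 CPM in unstimulated libraries, and none of the 5 was at 0 in any library. All 5 were lower in CD3_CD28 than in CD3 and higher in CD3_CD28_ICOS than in CD3_CD28, and 0 of 5 passed between CD3_CD28_ICOS and CD3. The part of these markers in the differences of the 10 genes was not tested. Pancreatic acinar markers summed to at most 0.0784 CPM in stimulated libraries, with Cpa1 and Ctrb1 at 0 in all 9, and to 265 to 1412 CPM in unstimulated libraries. Myeloid markers summed to at most 11.7 CPM in stimulated and to 118 to 284 CPM in unstimulated libraries. The 5 early response genes summed to 3138 CPM in unstimulated replicate 3, against 184 to 295 CPM in the other 11 libraries. One ribosomal RNA gene held 11.8% of the reads of CD3_CD28 replicate 1, against 1.26 to 3.20% elsewhere. Without unstimulated replicate 3 and CD3_CD28 replicate 1, the number of the 10 genes called in each direction was the same in all 6 comparisons. In bulk samples, fewer cells of a type and less RNA per cell cannot be told apart.

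Over the 9 stimulated libraries, all 10 genes passed limma's F test for any difference between the 3 groups, as did 80.7% of all genes tested. The adjusted p of that F test was 3.05e-07 for Cdkn1a, the smallest of the 10, and 0.0263 for Cdkn2d, the largest. Without CD3 replicate 2, CD3 replicate 3 or CD3_CD28 replicate 2, Cdkn2d no longer passed the F test, with adjusted p of 0.0825, 0.083 and 0.0741 in limma, while the other 9 genes did. By mean level, 5 genes were highest in CD3_CD28, namely Cdkn1a, Cdk6, Ccnd2, Ccnd3 and Cdkn2d. Another 4 were highest in CD3, namely Cdkn2c, Ccne1, Ccne2 and Cdk4. Cdkn1b was highest in CD3_CD28_ICOS, with group means of 109 to 173 CPM. The group means of Cdkn2d were 51.8 to 75.2 CPM.

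**Figure D1:**
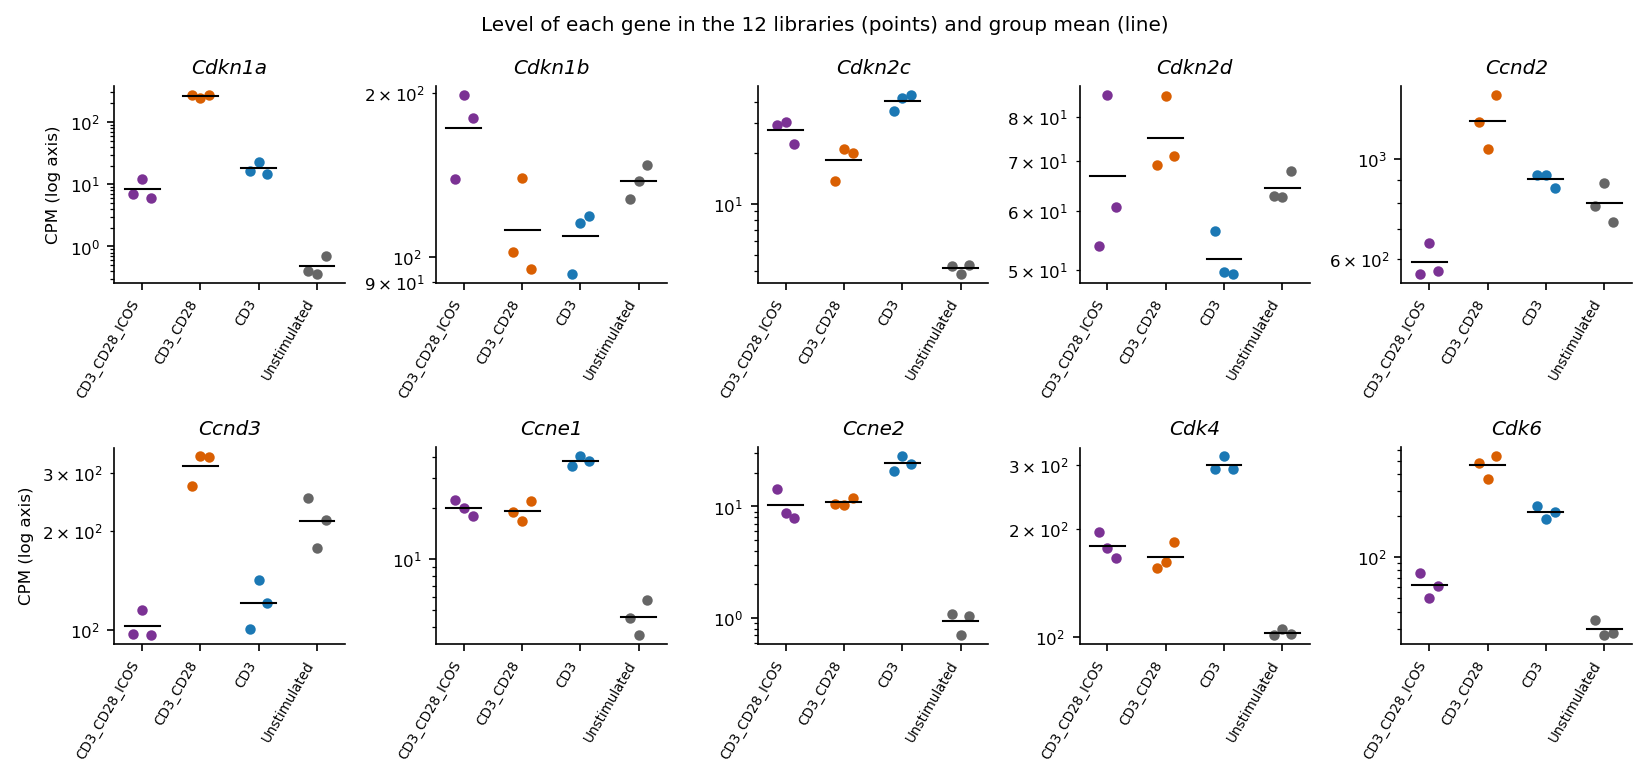
CPM (log axis, with its own range in each panel) of the 10 genes in the 12 libraries, by group, with the group mean as a line. Cdkn1a, Cdk6, Ccnd2 and Ccnd3 are highest in CD3_CD28, and Cdkn2c, Ccne1, Ccne2 and Cdk4 in CD3; the 3 unstimulated libraries of Cdkn1a lie between 0.364 and 0.695 CPM.

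Against unstimulated cells, 8 of the 10 genes passed in CD3_CD28_ICOS (6 higher, 2 lower), 8 in CD3_CD28 (8 higher, 0 lower) and 7 in CD3 (6 higher, 1 lower). Over all genes tested, 59.4% were called in CD3_CD28_ICOS against unstimulated (35.6% higher, 23.7% lower), 75.2% in CD3_CD28 (36.1% higher, 39.1% lower) and 69.8% in CD3 (43.6% higher, 26.3% lower). The median log2 fold change of the 10 genes was 0.92 in CD3_CD28_ICOS, 1.28 in CD3_CD28 and 2.17 in CD3, against 0.08, -0.04 and 0.18 over all genes tested. The libraries of the groups did not overlap for 8, 9 and 9 of the 10 genes, against 64.5%, 76.7% and 76.9% of all genes tested. These comparisons share the 3 unstimulated libraries. Cdkn1a, Cdkn2c, Ccne1 and Ccne2 entered the test only through the stimulated groups. Their rises were partly built into their entry, and so were these counts and medians. Under quantile and median-of-ratios scaling, 7 and 6 of the 10 genes rose in CD3 against unstimulated cells and 3 fell under both. In the unstimulated libraries the acinar and myeloid markers were higher, and their part was not tested. Cdkn1a, Cdkn2c, Ccne1, Ccne2, Cdk4 and Cdk6 rose in all 3 stimulated groups. Ccnd3 fell in CD3_CD28_ICOS and CD3 and rose in CD3_CD28, and Ccnd2 fell in CD3_CD28_ICOS and rose in CD3_CD28.

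Between the stimulated groups, 9 of the 10 genes passed in CD3_CD28 against CD3 (5 higher, 4 lower), where 64.4% of all genes tested were called (18.7% higher, 45.7% lower). In CD3_CD28_ICOS against CD3_CD28, 6 passed (2 higher, 4 lower), against 63% of all genes (38.5% higher, 24.5% lower). In CD3_CD28_ICOS against CD3, 8 passed (1 higher, 7 lower), against 47.7% of all genes (18.9% higher, 28.7% lower). Groups did not overlap for 9 of the 10 genes in CD3_CD28 against CD3 (72.4% of all genes), for 5 in CD3_CD28_ICOS against CD3_CD28 (64.8%) and for 8 in CD3_CD28_ICOS against CD3 (58.5%). The direction of calls over all genes depended on scaling. Calls in CD3_CD28 against CD3 were 29% higher as deposited, 48.1% after quantile normalization and 48.4% with median-of-ratios size factors. The number of the 10 genes higher and lower in CD3_CD28 against CD3 was 5 and 4 under all 3 scalings. In CD3_CD28_ICOS against CD3, where the share of higher calls was 39.7% as deposited, 50.5% and 48.4%, the 10 genes gave 1, 2 and 2 higher and 7 lower each time. The 3 comparisons share libraries with each other.

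**Figure D2:**
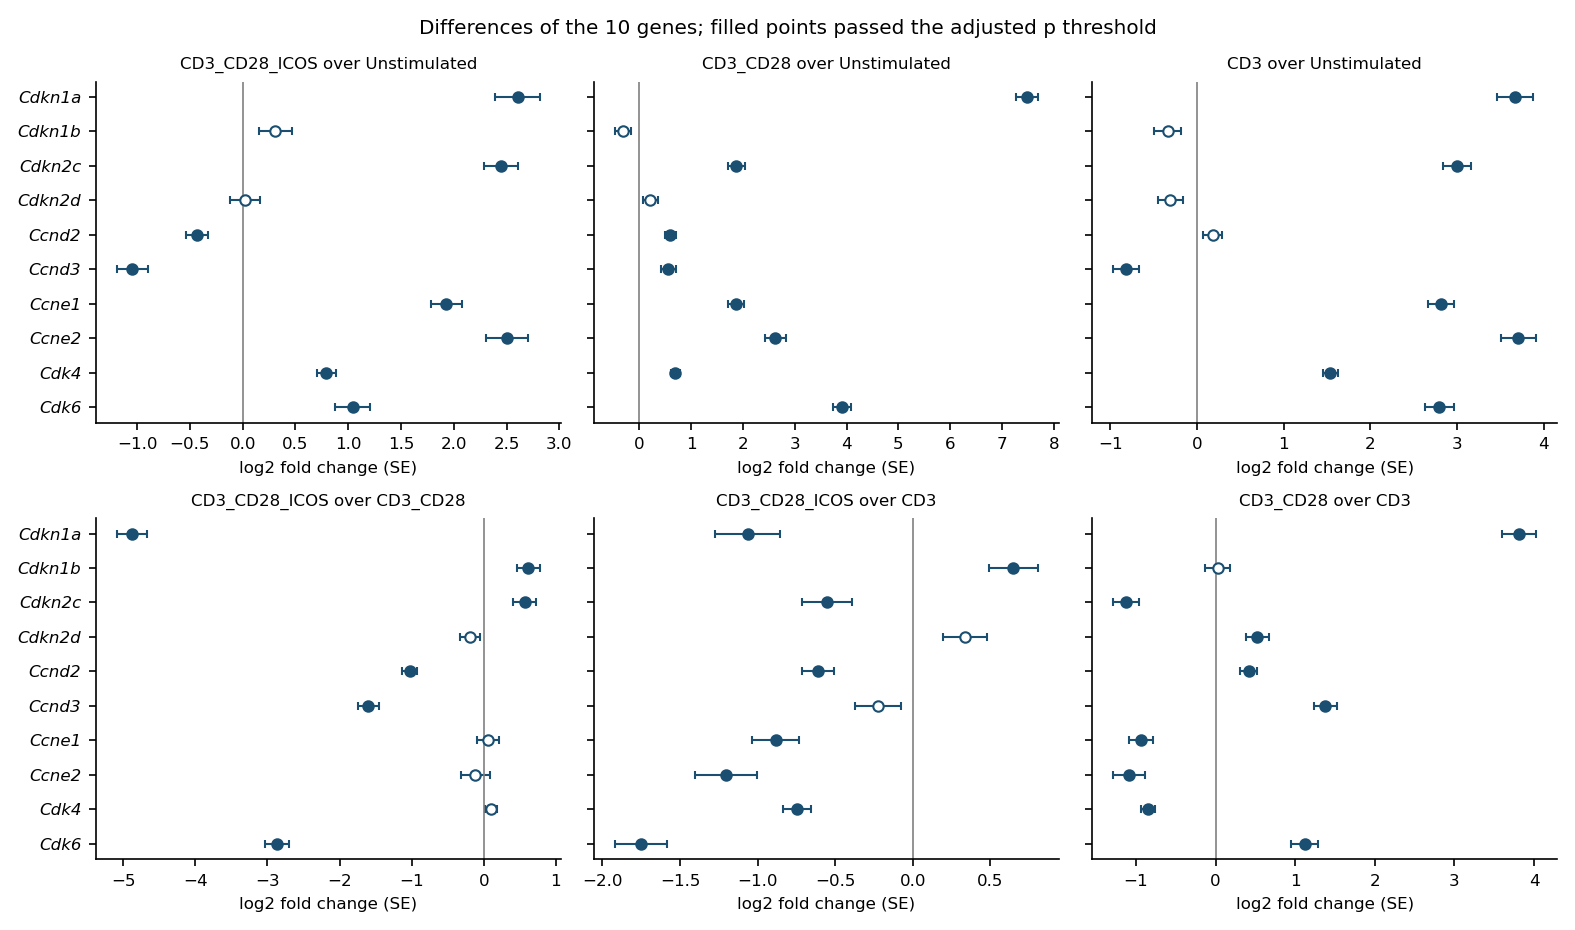
Log2 fold change on the log2(CPM + 1) scale with its SE from limma for the 10 genes in the 6 comparisons; filled points passed the adjusted p threshold and open points did not. In CD3_CD28 over CD3, Cdkn1a, Ccnd3, Cdk6, Cdkn2d and Ccnd2 passed to the right of 0 and Cdkn2c, Ccne2, Ccne1 and Cdk4 to the left.

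Cdkn1a encodes p21, a CIP/KIP inhibitor of cyclin-CDK complexes and a textbook target of the p53 tumour suppressor. It had the largest log2 fold change of the 10 genes in each comparison that involves CD3_CD28. Cdkn1a lies at chr17:29090976-29100727 on the plus strand (mm10, as for all coordinates here). It had 6.90, 12.04 and 6.07 CPM in the CD3_CD28_ICOS libraries, 274, 248 and 269 CPM in CD3_CD28, 16.7, 22.9 and 14.7 CPM in CD3, and 0.400, 0.364 and 0.695 CPM in unstimulated libraries. No pair of groups overlapped, and the order of levels was CD3_CD28, CD3, CD3_CD28_ICOS, unstimulated. At the estimated depths, the unstimulated values correspond to about 9, 10 and 16 reads per library.

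In CD3_CD28, Cdkn1a averaged 264 ± 13.7 CPM against 18.1 ± 4.27 CPM in CD3 (SD, n = 3 each), a ratio of means of 14.6. The log2 fold change was 3.81 ± 0.21 (SE; limma adjusted p = 3.61e-08), and 0.499% of genes tested changed more. In CD3_CD28_ICOS the mean was 8.34 ± 3.23 CPM, a log2 fold change of -4.88 ± 0.21 against CD3_CD28 (limma adjusted p = 3.7e-09) and of -1.06 ± 0.21 against CD3 (limma adjusted p = 0.00112). Against unstimulated cells, the log2 fold changes were 2.60, 7.48 and 3.67 in CD3_CD28_ICOS, CD3_CD28 and CD3, with limma adjusted p of 2.08e-07, 1.43e-11 and 4.23e-09. The added 1 shrinks these values strongly, since the unstimulated mean was 0.486 CPM. The ratios of mean CPM over unstimulated cells were 17.1, 542 and 37.2 in the same groups, and log2 ratios in the authors' deposited table were 4.11, 9.09 and 5.23. Cdkn1a entered the test only through the stimulated groups, so its differences from unstimulated cells were partly built into its entry. Exons of an unclassified transcript on the opposite strand cover 273 bases (7.68%) of the Cdkn1a exons.

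The RefSeq promoter table (GRCm38.p6) gave 11 windows for 8 of the 10 genes, each 300 bases, from 250 bases before to 50 after an annotated start. Both Cdkn1a windows, of its upstream and downstream annotated starts, are shown because of the size of its change.
Cdkn1a chr17:29090729-29091028 plus strand: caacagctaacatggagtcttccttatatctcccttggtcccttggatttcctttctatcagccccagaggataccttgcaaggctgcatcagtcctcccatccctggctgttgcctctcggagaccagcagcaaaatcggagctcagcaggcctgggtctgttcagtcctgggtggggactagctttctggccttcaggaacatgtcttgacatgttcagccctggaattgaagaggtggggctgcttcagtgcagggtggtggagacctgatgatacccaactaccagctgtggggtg
Cdkn1a chr17:29093519-29093818 plus strand: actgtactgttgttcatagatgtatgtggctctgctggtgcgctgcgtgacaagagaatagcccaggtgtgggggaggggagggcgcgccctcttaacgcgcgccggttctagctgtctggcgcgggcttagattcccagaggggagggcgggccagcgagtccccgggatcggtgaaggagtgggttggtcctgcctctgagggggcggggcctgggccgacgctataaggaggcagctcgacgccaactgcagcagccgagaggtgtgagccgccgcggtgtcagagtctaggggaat
The motifs searched on both strands were the E2F letters TTTCGCGC, TTTGGCGC, TTTCCCGC and TTTGCCGC, the AP-1 letters TGANTCA, the NFAT core GGAAAA, the E-box CACGTG and the forkhead letters TGTTTAC. None of these letters is in either Cdkn1a window.

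Cdkn1b, at chr6:134920401-134925513 on the plus strand, encodes p27, the CIP/KIP inhibitor that is abundant in resting lymphocytes. Cdkn1b had 139, 198 and 180.1 CPM in CD3_CD28_ICOS, 102, 139.9 and 95.1 CPM in CD3_CD28, 93.2, 115 and 119 CPM in CD3, and 128, 138 and 147 CPM in unstimulated libraries. It was higher in CD3_CD28_ICOS than in CD3 by 0.65 ± 0.16 on the log2 scale (SE; limma adjusted p = 0.00437) and than in CD3_CD28 by 0.62 ± 0.16 (limma adjusted p = 0.00381). In the second of these comparisons the 2 groups overlapped. None of the 3 stimulated groups passed against unstimulated cells, with limma adjusted p between 0.0698 and 0.105. In CD3, the value was -0.34 on the deposited scale. It was -0.48 after quantile normalization and -0.51 with median-of-ratios size factors, and passed there with limma adjusted p of 0.0152 and 0.0147. Its mean in CD3_CD28 and in CD3, 112 ± 24.1 and 109 ± 13.9 CPM (SD, n = 3 each), differed by 0.03 ± 0.16 on the log2 scale.

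Cdkn2c and Cdkn2d are the INK4 genes of the set. Cdkn2c, which encodes p18 and lies at chr4:109660876-109667189 on the minus strand, had 29.0, 30.2 and 22.5 CPM in CD3_CD28_ICOS, 13.6, 21.1 and 19.9 CPM in CD3_CD28, 35.4, 41.8 and 43.8 CPM in CD3, and 4.26, 3.86 and 4.34 CPM in unstimulated libraries. No group overlapped another, with CD3 highest and CD3_CD28_ICOS second. Cdkn2c fell by 1.12 on the log2 scale in CD3_CD28 against CD3 (SE 0.16, limma adjusted p = 5.85e-05). It rose in all 3 stimulated groups against unstimulated cells, by 2.44 in CD3_CD28_ICOS, 1.88 in CD3_CD28 and 3.00 in CD3. These rises were partly built into its entry, which came only through the stimulated groups. The difference between CD3_CD28_ICOS and CD3, -0.55 ± 0.16 (limma adjusted p = 0.0128), did not pass without CD3 replicate 3 (-0.49, adjusted p = 0.0519) or without CD3_CD28_ICOS replicate 3 (-0.43, adjusted p = 0.0692).

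Cdkn2d, which encodes p19INK4d and lies at chr9:21288410-21291407 on the minus strand, had 53.9, 85.7 and 60.8 CPM in CD3_CD28_ICOS, 69.1, 85.5 and 70.9 CPM in CD3_CD28, 56.3, 49.6 and 49.4 CPM in CD3, and 62.7, 62.7 and 67.8 CPM in unstimulated libraries. Its means lay between 51.8 and 75.2 CPM. On the deposited scale, CD3_CD28 against CD3 was the comparison of the 6 that passed, 0.53 ± 0.14 on the log2 scale (SE; limma adjusted p = 0.00582). Against unstimulated cells, its log2 fold changes were 0.02, 0.21 and -0.31 in CD3_CD28_ICOS, CD3_CD28 and CD3. After quantile normalization the value in CD3 was -0.54 (limma adjusted p = 0.00657), and with median-of-ratios size factors it was -0.48 (limma adjusted p = 0.013). CD3_CD28_ICOS against CD3, 0.34 (limma adjusted p = 0.0685), also passed under these scalings, at 0.45 (adjusted p = 0.0257) and 0.40 (adjusted p = 0.0441).

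The window of the more downstream of the Cdkn2c starts is shown because it holds an E-box, in capitals.
Cdkn2c chr4:109665323-109665622 minus strand: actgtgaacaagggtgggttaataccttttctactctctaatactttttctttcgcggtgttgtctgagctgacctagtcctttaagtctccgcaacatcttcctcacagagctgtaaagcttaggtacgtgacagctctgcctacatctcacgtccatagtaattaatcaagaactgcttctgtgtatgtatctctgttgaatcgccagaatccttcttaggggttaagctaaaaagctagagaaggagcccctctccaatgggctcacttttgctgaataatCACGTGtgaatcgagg
The E-box CACGTG was in 3 of the 11 windows, those of Cdk4, Cdk6 and this Cdkn2c window, and in 7.15% of all 32851 windows in the table. A match describes letters and is not a binding site.

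Ccnd2 and Ccnd3 encode D cyclins and lie at chr6:127125162-127152193 on the minus strand and chr17:47505051-47599691 on the plus strand. Ccnd2 had 558, 651 and 565 CPM in CD3_CD28_ICOS, 1202, 1051 and 1383 CPM in CD3_CD28, 919, 923 and 862 CPM in CD3, and 785, 883 and 727 CPM in unstimulated libraries. CD3_CD28 was highest and CD3_CD28_ICOS lowest, with no overlap, and CD3 and unstimulated cells overlapped. It was higher in CD3_CD28 than in CD3 by 0.42 ± 0.11 on the log2 scale (limma adjusted p = 0.00362) and lower in CD3_CD28_ICOS than in CD3_CD28 (-1.03 ± 0.11, limma adjusted p = 1.95e-06). CD3 against unstimulated cells, 0.18 ± 0.11, did not pass (limma adjusted p = 0.144), and passed after quantile normalization only (0.28, adjusted p = 0.0374). Ccnd2 fell by 0.43 in CD3_CD28_ICOS and rose by 0.60 in CD3_CD28 against unstimulated cells.

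Ccnd3 had 97.7, 116 and 96.7 CPM in CD3_CD28_ICOS, 274, 338 and 336 CPM in CD3_CD28, 101, 142 and 121 CPM in CD3, and 253, 178 and 216 CPM in unstimulated libraries. CD3_CD28 was above unstimulated cells, and both were above CD3 and CD3_CD28_ICOS, which overlapped. In CD3_CD28 against CD3 its log2 fold change was 1.38 ± 0.15 (limma adjusted p = 5.15e-06), the second largest of the 10 genes in that comparison. In CD3_CD28_ICOS against CD3_CD28 it was -1.60 ± 0.15 (limma adjusted p = 7.62e-07). Against unstimulated cells it was -1.04 in CD3_CD28_ICOS, 0.56 in CD3_CD28 and -0.82 in CD3, all 3 of which passed. Ccnd3 and Bysl overlap on opposite strands over 361 exon bases (4.11% of Ccnd3 exon length), and whether counting used strand is not given in the sources used here, so reads there cannot be told apart.

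One Ccnd3 window, the one that holds the forkhead letters (in capitals), is shown.
Ccnd3 chr17:47504801-47505100 plus strand: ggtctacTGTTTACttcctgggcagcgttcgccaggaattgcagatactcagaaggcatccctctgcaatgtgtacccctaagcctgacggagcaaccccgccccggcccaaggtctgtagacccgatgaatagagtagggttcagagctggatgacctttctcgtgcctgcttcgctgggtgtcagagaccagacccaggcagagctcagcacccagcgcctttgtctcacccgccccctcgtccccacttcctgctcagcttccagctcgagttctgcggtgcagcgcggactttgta
The forkhead letters TGTTTAC were in 1 of the 11 windows and in 3.65% of all windows in the table. E2F letters were in 0 of the 11 windows and 2.26% of all, AP-1 letters in 0 and 7.81%, and the NFAT core in 0 and 23.4%. A window without these letters says nothing of whether a factor acts on the gene.

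Cdk6 and Cdk4, the catalytic partners of the D cyclins, lie at chr5:3341485-3531008 and chr10:127063534-127067920, both on the plus strand. Cdk6 had 77.0, 49.97 and 61.7 CPM in CD3_CD28_ICOS, 485, 371 and 538 CPM in CD3_CD28, 235, 189 and 211 CPM in CD3, and 34.5, 26.9 and 27.8 CPM in unstimulated libraries. No pair of groups overlapped, and the order was CD3_CD28, CD3, CD3_CD28_ICOS, unstimulated, as for Cdkn1a. In CD3_CD28 the mean was 465 ± 85.0 CPM against 212 ± 22.8 CPM in CD3 (SD, n = 3 each), a log2 fold change of 1.12 ± 0.17 (SE; limma adjusted p = 9.16e-05). In CD3_CD28_ICOS the mean was 62.9 ± 13.5 CPM, a log2 fold change of -2.87 ± 0.17 against CD3_CD28 (limma adjusted p = 2.9e-08) and -1.75 ± 0.17 against CD3 (limma adjusted p = 7.23e-06). Of the genes tested, 1.71% changed more than Cdk6 between CD3_CD28_ICOS and CD3_CD28, and 1.14% between CD3_CD28_ICOS and CD3.

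Cdk4 had 196, 177 and 166 CPM in CD3_CD28_ICOS, 156, 162 and 184 CPM in CD3_CD28, 294, 318 and 292 CPM in CD3, and 101, 105 and 102 CPM in unstimulated libraries. CD3 was highest, unstimulated lowest, and CD3_CD28_ICOS and CD3_CD28 overlapped. Against CD3, Cdk4 fell by 0.75 ± 0.09 on the log2 scale in CD3_CD28_ICOS (limma adjusted p = 2.61e-05) and by 0.85 ± 0.09 in CD3_CD28 (limma adjusted p = 4.03e-06). CD3_CD28_ICOS against CD3_CD28 gave 0.10 ± 0.09 (limma adjusted p = 0.334), with its sign reversed under both other scalings. Against unstimulated cells Cdk4 rose by 0.79, 0.69 and 1.54 in CD3_CD28_ICOS, CD3_CD28 and CD3. Cdk4 and Tspan31, a tetraspanin gene of the opposite strand, share 641 exon bases (19.7% of Cdk4 exon length), and reads there cannot be told apart without strand.

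The Cdk4 and Cdk6 windows are shown for their E-boxes (capitals), 4 in Cdk4 and 1 in Cdk6.
Cdk4 chr10:127063285-127063584 plus strand: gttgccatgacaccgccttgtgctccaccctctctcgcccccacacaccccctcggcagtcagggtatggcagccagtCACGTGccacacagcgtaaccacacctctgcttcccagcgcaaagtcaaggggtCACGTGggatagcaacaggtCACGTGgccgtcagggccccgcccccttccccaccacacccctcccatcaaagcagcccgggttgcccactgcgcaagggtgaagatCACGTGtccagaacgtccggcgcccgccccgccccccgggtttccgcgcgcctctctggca
Cdk6 chr5:3343643-3343942 plus strand: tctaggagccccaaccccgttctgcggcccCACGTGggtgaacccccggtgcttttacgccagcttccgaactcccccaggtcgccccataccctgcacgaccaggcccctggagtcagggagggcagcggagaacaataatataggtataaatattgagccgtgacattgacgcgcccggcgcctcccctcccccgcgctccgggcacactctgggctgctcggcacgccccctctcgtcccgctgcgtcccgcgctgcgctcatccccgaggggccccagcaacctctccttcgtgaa

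Ccne1 and Ccne2 encode the E cyclins, the partners of CDK2, and lie at chr7:38097984-38107534 on the minus strand and chr4:11191351-11204779 on the plus strand. Ccne1 had 22.4, 20.1 and 17.9 CPM in CD3_CD28_ICOS, 19.0, 16.8 and 22.2 CPM in CD3_CD28, 35.3, 40.4 and 38.1 CPM in CD3, and 4.485, 3.57 and 5.73 CPM in unstimulated libraries. Ccne2 had 14.4, 8.68 and 7.85 CPM in CD3_CD28_ICOS, 10.54, 10.2 and 11.99 CPM in CD3_CD28, 20.8, 28.2 and 24.3 CPM in CD3, and 1.09, 0.697 and 1.03 CPM in unstimulated libraries. For both genes CD3 was highest without overlap, unstimulated lowest without overlap, and CD3_CD28_ICOS and CD3_CD28 overlapped.

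Ccne1 fell in CD3_CD28 against CD3 by 0.94 ± 0.15 on the log2 scale (limma adjusted p = 0.000132), and Ccne2 by 1.09 ± 0.20 (limma adjusted p = 0.000396). In CD3_CD28_ICOS against CD3, the log2 fold change was -0.88 ± 0.15 for Ccne1 and -1.204 ± 0.20 for Ccne2, with limma adjusted p of 0.000397 and 0.000331. Against unstimulated cells Ccne1 rose by 1.93, 1.87 and 2.81 in CD3_CD28_ICOS, CD3_CD28 and CD3, and Ccne2 by 2.50, 2.62 and 3.71. The ratios of mean CPM of Ccne2, at 0.939 CPM in unstimulated cells, were 10.96, 11.6 and 26.0 in the same groups. Both E cyclin genes entered the test only through the stimulated groups, so these rises were partly built into their entry. In CD3_CD28_ICOS against CD3_CD28 neither passed. Ccne2 and Ints8 share 609 exon bases on opposite strands (17.4% of Ccne2 exon length), with the same limit as for Cdk4. Ccnd2 and Ccne2 have no promoter window here.

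Per kilobase of exon, Ccnd2 stood above Ccnd3 in every group, with 62.8 and 11.8 CPM per kb in CD3_CD28_ICOS, 129 and 36.0 in CD3_CD28, 95.8 and 13.8 in CD3, and 84.8 and 24.6 in unstimulated cells. Cdk4 stood above Cdk6 in every group, with 55.3 and 4.50 CPM per kb in CD3_CD28_ICOS, 51.6 and 33.2 in CD3_CD28, 92.8 and 15.1 in CD3, and 31.7 and 2.13 in unstimulated cells. Cdkn1a reached 74.2 CPM per kb in CD3_CD28, against 24.7 CPM per kb of Cdkn1b there. In CD3_CD28_ICOS Cdkn1a had 2.35 CPM per kb and Cdkn1b 37.9, in CD3 they had 5.09 and 24.0, and in unstimulated cells 0.137 and 30.2. Lengths are the union of annotated exons in GENCODE M21, so the per-kb scale assumes that all exons are used.

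Ratios of 2 genes of the same library do not change with the scaling of that library, and are compared only between groups. The geometric mean ratio of Cdk6 to Cdk4 CPM was 0.346 in CD3_CD28_ICOS, 2.75 in CD3_CD28, 0.700 in CD3 and 0.287 in unstimulated cells. The CD3_CD28 libraries lay above all others, and CD3_CD28_ICOS overlapped unstimulated cells. The ratio of Cdkn1a to Cdkn1b was 0.0466 in CD3_CD28_ICOS, 2.38 in CD3_CD28, 0.164 in CD3 and 0.00339 in unstimulated cells, with no overlap between groups. The ratio of Cdkn2c to Cdkn2d was 0.413, 0.239, 0.777 and 0.0645 in CD3_CD28_ICOS, CD3_CD28, CD3 and unstimulated cells. Ratios within the cyclin pairs differed less. Ccnd2 to Ccnd3 was 5.73 in CD3_CD28_ICOS, 3.83 in CD3_CD28, 7.49 in CD3 and 3.73 in unstimulated cells, and Ccne1 to Ccne2 was 2.02, 1.76, 1.56 and 4.89 in the same groups.

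**Figure D3:**
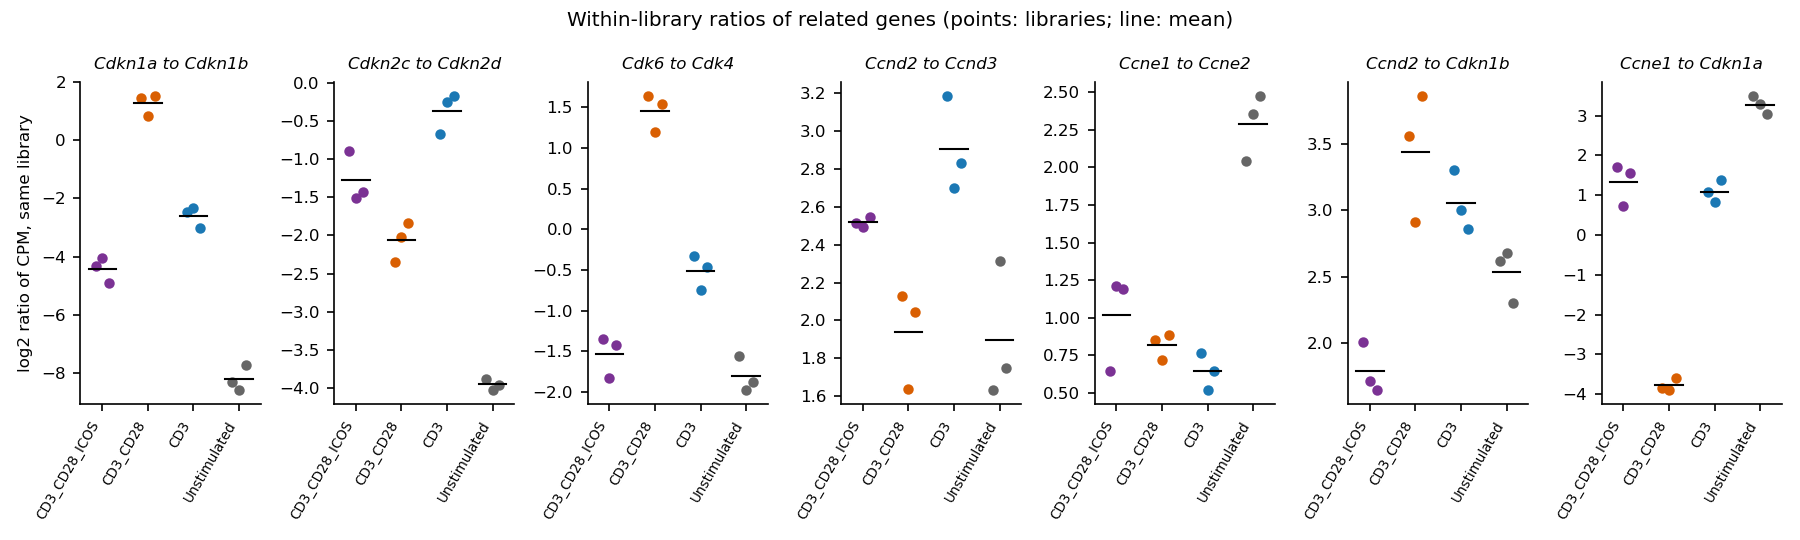
Log2 ratio of the CPM of 2 genes in the same library, for 7 pairs, by group; points are libraries and lines are group means. Cdk6 to Cdk4 and Cdkn1a to Cdkn1b are highest in CD3_CD28, where the geometric ratios are 2.75 and 2.38.

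Over the 12 libraries, Cdkn2c, Ccne1, Ccne2 and Cdk4 had pairwise Pearson correlations of log2(CPM + 1) between 0.93 and 0.99. The correlation of Cdkn1a with Cdk6 was 0.94, and that of Ccnd2 with Ccnd3 was 0.73. These describe 12 libraries that fall into 4 groups, so the points share their group. Nearest genes were sought among the genes tested. Predicted and clone-named genes, pseudogenes, immunoglobulin and T cell receptor segments and replication-dependent histones were left out. By the same correlation, the genes most like Cdkn2c were Incenp, Esco2 and Kif22, with 0.998, 0.997 and 0.996. Those most like Ccne1 were Uhrf1, Mybl2 and Fignl1, and those most like Ccne2 were Uhrf1, Aunip and Fignl1, with values between 0.994 and 0.996. Cdk4 was nearest to Gins1 (0.997), Utp14b (0.991) and Pola1 (0.989). Cdkn1a was nearest to Snhg6 (0.997), Ssr3 (0.995) and Chchd10 (0.993), and Cdk6 to Slc1a4, Eif3a and Trim27, at 0.984 to 0.986. Ccnd2 was nearest to Ubtd1 (0.958), Ccnd3 to Lratd2 (0.984), Cdkn1b to Phf21a (0.910) and Cdkn2d to Prxl2c (0.927).

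Genes of the surrounding pathway were taken from lists chosen with earlier results of these data known. The lists share Ccng1 (p53 and other cyclins), Ccng2 (other cyclins and FOXO) and Rbl2 (RB and FOXO), so their counts are not fully separate. In CD3_CD28 against CD3, where 45.7% of all genes tested fell and 18.7% rose, 11 of 12 tested RB and E2F genes fell and Rb1 rose (0.78 on the log2 scale), with a list median of -0.67 against -0.24 over all genes. E2f7, E2f8 and E2f2 fell by 1.88, 1.55 and 1.46. E2f7 had at most 5.96 CPM in CD3_CD28 and entered the test through other groups, so its fall was partly built in. All 7 tested mitotic cyclin and CDK1 genes fell, by 0.60 (Cdc25b) to 1.19 (Ccnf). Of 11 tested genes for turnover and activation of G1 proteins, 10 fell and none rose, among them Skp2 (-1.03), which targets p27 for degradation, and Wee1 (-1.27), an inhibitory kinase of CDK1. Skp2 reached 10 CPM in the CD3 libraries only (10.4 to 11.9 CPM), so its fall was partly built into its entry. Fbxo4 and Rbx1, also among the 10, had at most 9.65 and 7.45 CPM in CD3_CD28 and entered through other groups. Their falls, and so the count of 10, were partly built in as well. The number of called genes was smaller under the other scalings. RB and E2F had 7 lower and turnover genes 7 and 5 lower after quantile normalization and median-of-ratios scaling, while mitotic genes had 6 lower under both.

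In the same comparison, 8 genes of cytokine and growth signalling upstream of D cyclins were tested. Of these 5 rose and 2 fell, against 18.7% and 45.7% of all genes, with a median of 1.02, and 6 rose and 1 fell under both other scalings. Cish, a STAT5 target whose product inhibits cytokine signalling by feedback and does not induce D cyclins, rose by 3.20, Pim1, a kinase induced by cytokines, by 1.99, Il2ra, the interleukin-2 receptor alpha chain, by 1.38, and Stat5a by 1.19. Of 16 tested p53 genes 9 rose and 4 fell, against the same shares of all genes. Phlda3 and Sesn2 rose by 2.24 and 1.95, Sesn1 fell by 1.95, and Trp53 itself fell by 1.03. Phlda3 and Perp reached 10 CPM in CD3_CD28 libraries only, and Bbc3 had at most 9.49 CPM in CD3 and entered through other groups. Their part in the p53 counts, and the rise of Phlda3, were therefore partly built into their entry. Among 9 tested other CDK inhibitors, cyclins and CDKs 3 rose and 6 fell, with Ccng1 at 1.04 and Cdk2 at -1.41. Cdkn3, 1 of the 6, had at most 9.02 CPM in CD3_CD28 and entered through other groups, so its fall was partly built in. Of 11 FOXO genes 4 rose and 5 fell (5 and 4 under both other scalings), with Il7r at 1.55 and Klf2 at -2.11.

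**Figure D4:**
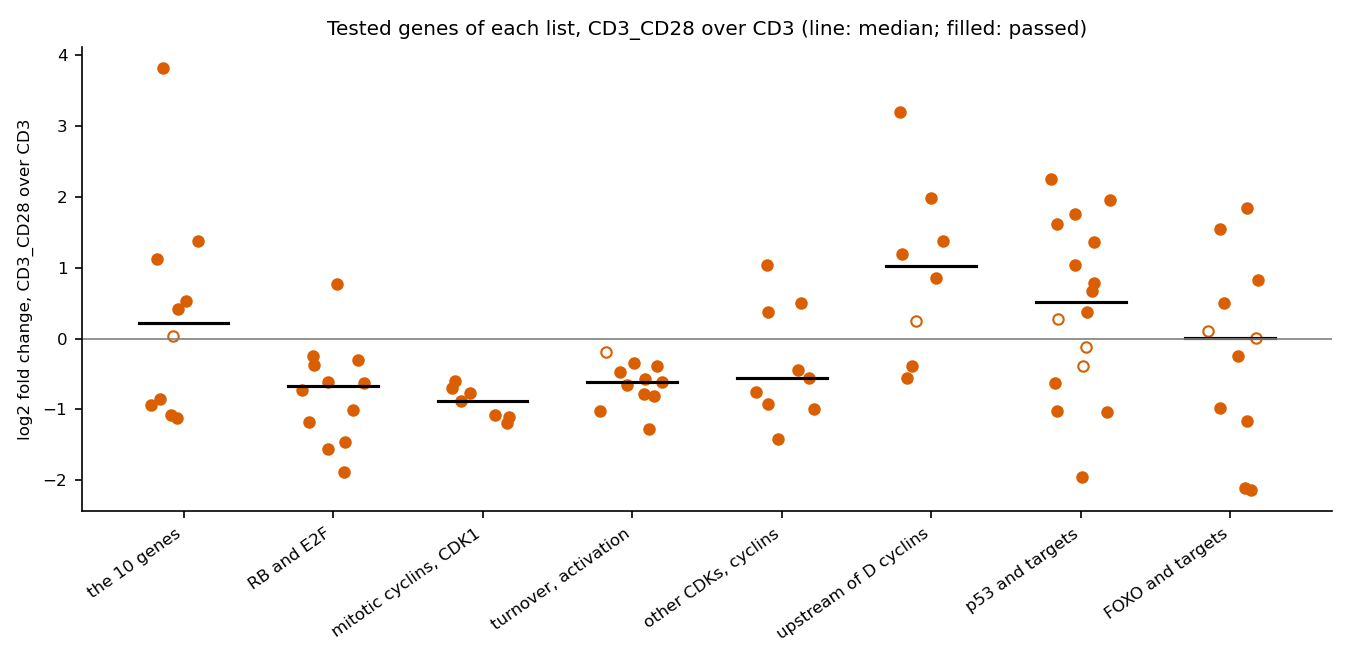
Log2 fold change of CD3_CD28 over CD3 for the tested genes of 8 lists, each point 1 gene, filled where it passed, with the list median as a line. Ccng1, Ccng2 and Rbl2 appear in more than 1 list. The medians are -0.67 for RB and E2F, -0.88 for mitotic genes and 1.02 for genes upstream of D cyclins; the 10 genes have a median of 0.22.

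In CD3_CD28_ICOS against CD3_CD28, 38.5% of all genes tested rose and 24.5% fell. Of the 8 genes upstream of D cyclins, 6 fell and none rose (median -1.34). Cish, the feedback inhibitor, fell by 2.78, Pim1 by 1.68, Il2ra by 1.62, Stat5a by 1.35, Myc by 1.33 and Stat5b by 0.28. Of 16 p53 genes 9 fell and 4 rose (11 and 4 under both other scalings), with Phlda3 at -2.81, Perp at -2.79, Sesn1 at 2.46 and Btg2 at 1.78. Phlda3 and Perp reached 10 CPM in CD3_CD28 libraries only, so their falls were partly built into their entry. Mitotic genes rose in 3 of 7, among them Cdc25b (1.10) and Ccnb2 (0.78), and RB and E2F genes rose in 5 and fell in 3 of 12, shares near those of all genes. FOXO genes rose in 7 and fell in 3 of 11, with S1pr1 at 3.10 and Klf2 at 2.85.

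In CD3_CD28_ICOS against CD3, where 18.9% of all genes tested rose and 28.7% fell, 9 of 11 FOXO genes rose and 0 fell, with S1pr1 at 1.94. RB and E2F genes fell in 8 and rose in 1 of 12, with E2f1 at -1.29 and Tfdp1 at -1.14. Mitotic genes fell in 4 and rose in 1 of 7. Of the 7 mitotic genes, 6 were under 10 CPM in every unstimulated library and entered the test only through the stimulated groups, as did E2f1, E2f3, E2f7 and E2f8. No count against unstimulated cells is given for these lists. Cdc25b, the other mitotic gene, rose by 2.03 in CD3_CD28_ICOS, 0.93 in CD3_CD28 and 1.53 in CD3 against unstimulated cells, and Rbl2, the RB relative p130, fell by 0.92 in CD3_CD28 and 0.68 in CD3. Cdkn1c, Cdkn2a, Cdkn2b and Ccnd1, named after their values were seen, were under the filter. Ccnd1 averaged 0.871, 0.483, 0.800 and 5.39 CPM in CD3_CD28_ICOS, CD3_CD28, CD3 and unstimulated cells.

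The authors' deposited table of their own DESeq2 comparisons gave totals per gene that equal the sum of the 12 CPM values within 0.1% for all 17203 genes. In the authors' deposited table, false discovery rates were under 0.05 for 8, 8 and 7 of the 10 genes in CD3_CD28_ICOS, CD3_CD28 and CD3 against unstimulated cells, the same genes as here. Between stimulated groups the authors' deposited table called 6 of 10 in CD3_CD28 against CD3, where limma called 9. The genes called here and not in the authors' deposited table were Cdkn2d, Ccne1 and Ccne2. In CD3_CD28_ICOS against CD3 the authors' deposited table called 5 of the 8 called here, without Cdkn2c, Ccne1 and Ccne2. In CD3_CD28_ICOS against CD3_CD28 the authors' deposited table called 5 of the 6, without Cdkn2c. All 10 genes had the same sign in both sources in all 6 comparisons. Both sources rest on the same 12 libraries, so equal signs are not independent evidence.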

How the data were processed

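RNA was sequenced from 12 libraries of mouse CD4+ T cells, 3 for each of 4 groups taken from the sample titles and treatments. Partek (version 10), DESeq2 and mm10, a mouse build, appear in the submitters' processing notes. Aligner, counting tool and strand setting: not given in the sources used here. The authors deposited CPM values, each with 1e-04 added, found from the values and removed here. CPM is not corrected for length, and 1 abundant gene lowers the rest of its library. The authors also deposited p-values, false discovery rates and log2 ratios for their own comparisons, per the file headers. Only 76.3 to 81.2% of low values (up to 1.2 CPM) came within 0.02 of a whole multiple of 1 read, too few for recovering reads, and no count test was run.

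Genes at 10 CPM or more in 3 of 12 libraries, 9826 in all, were fitted as log2(CPM + 1) by limma (version 3.58.1, R 4.3.3) with a trend, robust estimation and a mean for each group. Tests were two-sided with Benjamini-Hochberg adjustment over all genes tested. The script was checked on simulated data. Promoter windows are RefSeq, GRCm38.p6, gene lengths GENCODE M21. The 10 genes and the lists were chosen with earlier results of these data known. Every member of a list of up to 12 genes could be named, and up to 4 called genes of a longer list, those with the largest change in either direction. For each of the 10 genes the 3 tested genes nearest in Pearson correlation were taken, with the exclusions named beside those results. Alternatives were another pseudocount, another filter, quantile and median-of-ratios scaling, no ribosomal RNA gene, 6 libraries only, no trend, a replicate block and each library left out. Per-sample columns left unused numbered 0. Some genes of the lists are not reported here by name.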

Additional observations from a re-analysis of the deposited data

How the results depend on the processing

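Of 1020 alternative values of the 10 genes in 6 comparisons, 990 kept their direction and side of the threshold, 2 lost the call, 16 gained it and 12 changed sign, none of them called. Cdkn2d in CD3_CD28_ICOS against unstimulated cells gave -0.0914 after quantile normalization and -0.0787 with median-of-ratios size factors. Ccne1 in CD3_CD28_ICOS against CD3_CD28 gave -0.0471 and -0.0809, and Cdk4 there gave -0.0439 and -0.0464. With each library left out in turn, Cdkn1b in CD3_CD28 against CD3 ranged from -0.138 to 0.138, and Cdkn2d in CD3_CD28_ICOS against unstimulated cells from -0.166 to 0.163. In CD3_CD28_ICOS against CD3_CD28, Ccne1 ranged from -0.0316 to 0.157 and Ccne2 from -0.362 to 0.0353. The cause was not tested. Without the filter, 11496 genes were called in CD3_CD28 against unstimulated cells, against 7391 with it, because more genes were tested. Quantile and median-of-ratios scaling moved the median of all genes by -0.25 and -0.17 in CD3 against unstimulated cells, by 0.21 in CD3_CD28 against CD3 under both, and by -0.12 and -0.14 in CD3_CD28_ICOS against CD3_CD28. The share of calls that were higher was 60% as deposited, 44% and 49.2% under these scalings in CD3_CD28_ICOS against unstimulated cells, 62.4%, 45.3% and 50.6% in CD3 against unstimulated cells, 61.2%, 50.9% and 48.6% in CD3_CD28_ICOS against CD3_CD28, and 39.7%, 50.5% and 48.4% in CD3_CD28_ICOS against CD3. Whether replicate numbers pair the libraries is not known. Of 18 same-numbered pairs, 6 had a correlation of deviations over 0.1 (range -0.0998 to 0.408), and 7 of 12 libraries were closest to their own number. The highest were 0.408 and 0.335, between CD3 and CD3_CD28_ICOS in replicates 2 and 3. With a replicate block, 8 of the 10 genes were called in CD3 against unstimulated cells (7 without it), 9 in CD3_CD28 and 9 in CD3_CD28_ICOS (8 without it in both), Cdkn1b being the gene added in each. Genes near 1 CPM in unstimulated cells, Cdkn1a and Ccne2, are limited there by depth.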
